A study of Mus musculus with 2 samples.

Results

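The genes described here are Tcf7, Lef1, Klf2, Klf3, Satb1, Bach2, Foxp1, Foxo1 and S1pr1, which are known as factors of naive, resting and stem-like T cells. They were taken by symbol from the deposited gene list, 9 of 32285 genes. The cells came from melanoma tumours of C57BL/6J mice, 4 of which received the bacterium Lactobacillus reuteri and 4 of which received PBS. The hashtag names LR mouse 1 to 4 and PBS mouse 6 to 9 were read as these groups; the labels do not spell out LR, and every LR against PBS value rests on that reading. The labels call the second group both untreated and PBS-treated, and the cell type field gives CD3+ T cells where the protocol gives 8000 live CD8+ cells sorted per mouse after CD90.2 enrichment. Sorted cells were pooled by condition and all 8 mice were loaded on 1 droplet lane, so handling after the sort cannot be told apart from treatment. Each mouse had its own hashtag antibody and is the replicate throughout. A hashtag named LR mouse 5 is also listed, with 5699 UMIs and no barcode in which it was the highest, and was not used. The labels give neither age nor sex.

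T cells that have not met antigen are kept in a resting state by a small set of transcription factors. TCF1 (gene Tcf7) and LEF1 are related DNA-binding partners of beta-catenin and Groucho proteins, FOXO1 is held out of the nucleus by PI3K and AKT signalling and drives homing and survival genes, and KLF2 acts downstream of it on S1pr1, which lets T cells leave tissue. Strong antigen signalling turns this programme down, and in chronic infection and tumours a TCF1-positive subset of PD-1-positive CD8 T cells is known as the stem-like reservoir that answers checkpoint blockade. KLF3 is a repressor of the same family as KLF2, SATB1 organises chromatin loops, BACH2 competes with AP-1 at shared sites, FOXP1 enforces naive quiescence, and S1PR1 is the receptor for sphingosine 1-phosphate.

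On GRCm38 (GENCODE M21) Tcf7 lies on the minus strand at chr11:52252371-52283014 and Lef1 on the plus strand at chr3:131110471-131224356. Klf2 is at chr8:72319033-72321656 (plus), Klf3 at chr5:64803388-64832901 (plus), Satb1 at chr17:51736187-51833290 (minus) and Bach2 at chr4:32238804-32586108 (plus). Foxp1 is at chr6:98925338-99522721 (minus), Foxo1 at chr3:52268336-52353221 (plus) and S1pr1 at chr3:115710433-115715072 (minus). All 9 are protein-coding, and all but Klf2 and S1pr1 overlap another annotated gene, so reads could be shared there; whether counting used strand is not given in the sources used here.

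Because these genes moved together, their start regions were searched for the motifs of the members' own families. RefSeq windows on GRCm38.p6 (250 bases before to 50 after a start) were matched for 8 of the 9 genes (all but S1pr1), 18 windows in all, and searched on both strands for CTTTGAT and CTTTGAA (TCF/LEF), GTAAACA (forkhead), GGGTGTG (KLF) and TGACTCA (BACH and AP-1). The first pair differ in the last letter, and TGACTCA is shared by BACH and AP-1 factors. Windows of 3 genes held a match, and these 29-base stretches, shown because they carry a motif of one member's family in another member's promoter, have the match in capitals:
Tcf7, chr11:52282647-52282675, minus strand: accgggggtggGGGTGTGgggggcgggtt
Satb1, chr17:51833324-51833352, minus strand: ctggggagcgaCACACCCcacacaagctg
Foxp1, chr6:99266703-99266731, minus strand: gcaagatcacaTTCAAAGgtagatctccc
In Tcf7 the match is the KLF motif as written and in Satb1 its reverse complement, and in Foxp1 it is the reverse complement of CTTTGAA. The Tcf7 window also held GTAAACA. Of the 18 windows, 2 held GGGTGTG, 1 CTTTGAA, 1 GTAAACA, 0 CTTTGAT and 0 TGACTCA. Over 32851 RefSeq windows of the same length, 7.954% held GGGTGTG, 5.135% CTTTGAA, 3.65% GTAAACA, 3.729% CTTTGAT and 5.202% TGACTCA. The share of windows with any of these motifs was not computed, so the count of 3 genes has no like background here. A match describes the letters only.

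The matrix held 64359313 gene UMIs (unique molecular identifiers, which count captured RNA molecules) in 16969 barcodes, and 10830 cells with 1 hashtag were kept, 509 to 2671 per mouse, with a median of 3280 UMIs. CD8 cells (at least 1 Cd8a or Cd8b1 UMI, no Cd4 and no Foxp3 UMI) numbered 6147, CD4 cells (a Cd4 UMI and no Foxp3 UMI) 1906 and Foxp3-positive cells 834. The CD4 and Foxp3-positive cells are present although the labels describe a CD8+ sort; 316 Foxp3-positive and 532 CD4 cells also had a Cd8a or Cd8b1 UMI. A CD3 chain UMI was found in 97.4% to 98.0% of cells of the 3 classes, and the summed level of 5 regulatory T cell markers was 3127 ± 323 CPM in Foxp3-positive and 600 ± 258 CPM in CD4 cells (mean ± SD, n = 8 mice). The 5 markers include Foxp3 itself, at a mean of 513 CPM in Foxp3-positive cells and at 0 in CD4 cells by the gate. That part of the difference was fixed in advance. Levels are given as CPM, a gene's UMIs per 1000000 UMIs of a mouse's summed cells of a class. The summed level of 6 melanoma markers was at most 9.88 CPM in any sum of a mouse and class used here. A lower sum can come from fewer cells with the transcript or from less of it per cell, and the sums alone do not tell these apart.

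CD8 cells were divided by Pdcd1, which encodes the inhibitory receptor PD-1 and is induced by antigen. All 9 genes were lower in the 1856 cells with a Pdcd1 UMI than in the 4291 without, in 8 of 8 mice. The largest differences were those of Klf2 and Klf3 and the smallest those of Foxp1 and Foxo1. Of 8707 genes tested, 60.3% were called in this comparison and 30.9% were called lower, so 9 of 9 stands against a background in which change is common. A gene was called at a Benjamini-Hochberg adjusted p of 0.05 or less in edgeR's quasi-likelihood test, with mouse as a block. Scaling to library totals in place of edgeR's TMM factors shifted the median log2 ratio of all genes by 0.14 and the share of called genes that were higher from 48.8% to 62.4%; all 9 genes stayed lower. The summed level of 13 myeloid markers was 345 ± 350 CPM in Pdcd1-negative and 199.99 ± 21.4 CPM in Pdcd1-positive cells, where Adgre1, Fcgr1 and Ms4a7 were at 0, and all 9 genes were also called lower among cells with a CD3 chain UMI and fewer than 3 myeloid or B cell markers.

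Tcf7, the gene of TCF1, was at 475, 532 and 694 CPM (lowest, median and highest mouse) in Pdcd1-negative and at 30.4, 99.95 and 255 CPM in Pdcd1-positive cells. Lef1 was at 235, 329 and 408 CPM against 34.5, 57.9 and 134 CPM. For both genes every Pdcd1-negative sum lay above every Pdcd1-positive sum. The log2 ratio was -2.60 ± 0.28 (SE) for Tcf7 and -2.56 ± 0.14 for Lef1 (edgeR adjusted p = 9.12e-05 and 1.17e-07), or 16.5% and 16.9% of the level in Pdcd1-negative cells.

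Klf2, which keeps T cells quiescent and recirculating, was at 1157, 1701 and 2477 CPM in Pdcd1-negative and at 86.0, 196 and 414 CPM in Pdcd1-positive cells. Its target S1pr1 was at 153, 179 and 240 CPM against 11.7, 29.7 and 65.5 CPM. The groups did not overlap for either gene. The log2 ratio was -3.33 ± 0.30 for Klf2 and -2.83 ± 0.27 for S1pr1, and that of Klf3 was -3.12 ± 0.32 (edgeR adjusted p = 3.12e-05, 4.55e-05 and 7.06e-05).

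The chromatin organiser Satb1 was at 298, 323 and 381 CPM against 22.8, 41.7 and 110 CPM, and the repressor Bach2 at 68.5, 91.0 and 108 CPM against 6.31, 14.6 and 38.8 CPM. Their log2 ratios were -3.05 ± 0.26 and -2.71 ± 0.28 (edgeR adjusted p = 2.30e-05 and 6.00e-05). The forkhead genes were the least reduced. Foxp1 was at 197, 236 and 253 CPM against 45.4, 57.3 and 120 CPM, and Foxo1 at 115, 152 and 185 CPM against 42.3, 59.1 and 92.2 CPM. Even so, no Pdcd1-positive sum of either gene reached the lowest Pdcd1-negative sum, and the log2 ratios were -1.93 ± 0.15 and -1.47 ± 0.07 (edgeR adjusted p = 2.31e-06 and 1.21e-14).

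**Figure D1:**
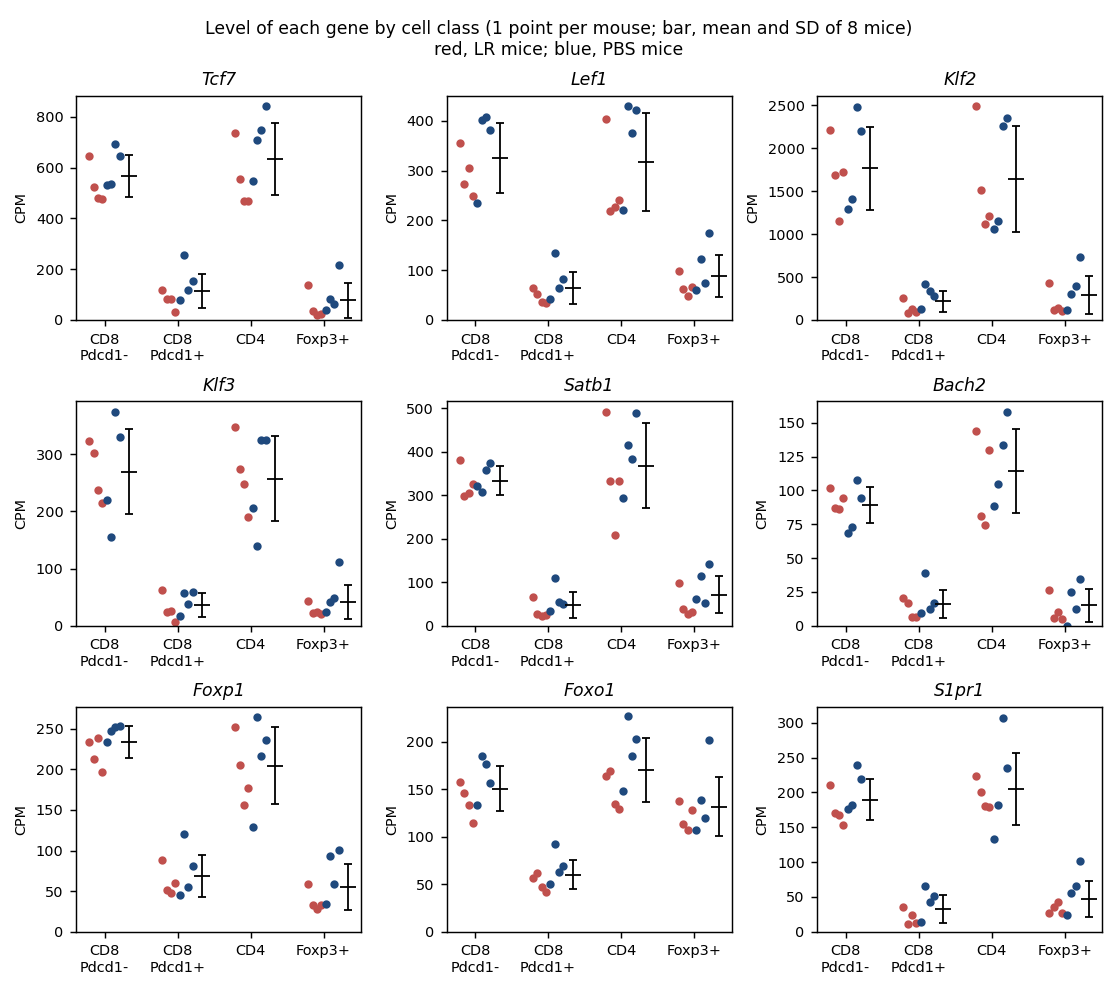
Levels of the 9 genes (1 panel each, CPM on the y axis) in Pdcd1-negative CD8, Pdcd1-positive CD8, CD4 and Foxp3-positive cells. Each point is 1 mouse (red, LR; blue, PBS) and the bars give the mean and SD of 8 mice; in every panel the Pdcd1-positive CD8 points lie below the Pdcd1-negative ones, and Foxo1 alone has Foxp3-positive points (mean 132 CPM) that reach into the CD4 range (mean 170.0 CPM).

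How much of each gene remained in Pdcd1-positive cells was read as the percent of the same mouse's Pdcd1-negative level. Foxo1 kept a median of 37.3% (35.2% to 49.7% over 8 mice) and Foxp1 27.4% (19.5% to 48.6%). Lef1 kept 18.1%, Tcf7 17.0%, Bach2 15.8%, S1pr1 15.6%, Satb1 11.9%, Klf2 11.4% and Klf3 10.6%. Foxo1 was the best kept of the 9 in 6 of 8 mice; the exceptions were LR mouse 1, where Foxp1 was at 38.0% and Foxo1 at 35.5%, and PBS mouse 7, where Bach2 was at 53.0% and Foxo1 at 49.7%. Klf2 ranked last in 4 mice, Klf3 in 3 and Satb1 in 1. PBS mouse 7 had the highest value of all 9 genes, and 114 of its CD8 cells (8.95%) were Pdcd1-positive, the lowest share of any mouse. These orders are descriptions across genes, and neighbouring genes in the middle of the list overlap widely between mice.

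All 9 genes were lowest in the cells with most Pdcd1 UMIs. With 1 Pdcd1 UMI (555 cells) Tcf7 was at 53.5%, Klf2 at 39.0%, Foxp1 at 59.7% and Foxo1 at 70.6% of the level in cells without one. With 6 or more (569 cells) Tcf7 was at 6.95% ± 2.39 (SD, n = 8 mice), Lef1 at 8.46%, Bach2 at 7.33%, Satb1 at 4.81%, S1pr1 at 3.98%, Klf2 at 3.28% ± 0.99 and Klf3 at 3.13% ± 2.19, while Foxp1 was at 17.8% ± 7.1 and Foxo1 at 26.3% ± 4.8. The bin of 2 Pdcd1 UMIs (231 cells) held 7 mice, and between it and the bin of 3 to 5 Bach2 went from 13.8% to 16.8% and Foxo1 from 35.6% to 37.1%, so the order was not strict for every gene. Foxo1 and Foxp1 were thus the 2 genes with most of their level left in every bin of Pdcd1 counts. The cells of these bins also differed in depth, with medians of 3421 UMIs at 0, 3640 at 1 and 9463 at 6 or more, and its part in these values was not tested; in cells thinned to 1500 UMIs all 9 genes were still called lower in Pdcd1-positive cells.

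**Figure D2:**
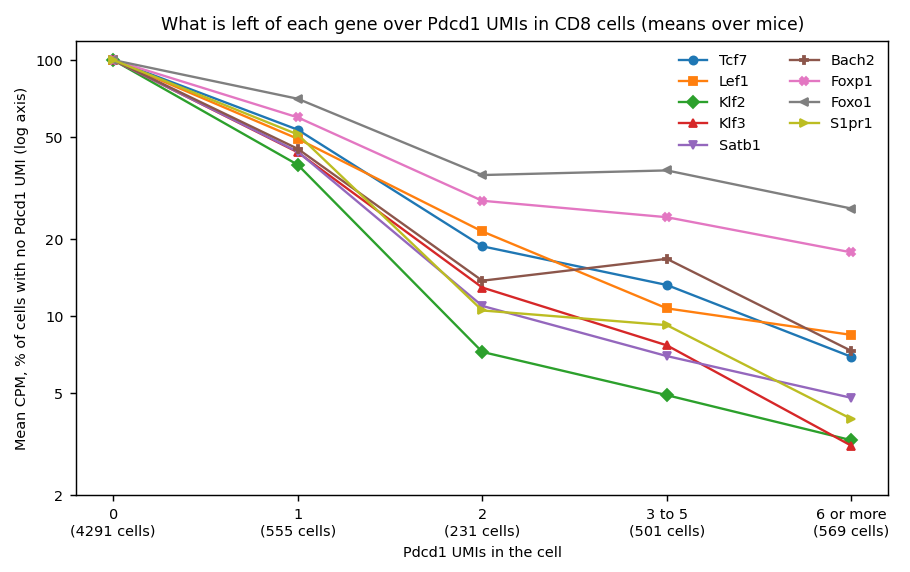
Mean CPM of each gene over mice, as a percent of its level in CD8 cells without a Pdcd1 UMI (y axis, log scale), by the number of Pdcd1 UMIs in the cell (x axis, with the number of cells). Foxo1 and Foxp1 lie above the other 7 genes in each bin past 0 and end at 26.3% and 17.8%, and Klf3 ends lowest at 3.13%.

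Counted by cells at a fixed depth of 1500 UMIs, 17.1% ± 8.1 of Pdcd1-positive CD8 cells had a Tcf7 UMI against 53.9% ± 6.4 of Pdcd1-negative cells (33.4% and 74.2% without thinning; SD over 8 mice). Klf2 was found in 21.4% ± 11.1 against 72.2% ± 8.7 (37.3% and 79.6% without thinning) and Foxo1 in 11.9% ± 4.6 against 19.7% ± 2.5 (31.7% and 37.8%). The share was lower in Pdcd1-positive cells in every mouse for all 9 genes. The thinning left out 88 of 1856 and 584 of 4291 cells. As a view of free RNA, 24 myeloid barcodes without a CD3 chain UMI, with a median of 8554 UMIs before thinning, showed Tcf7 in 0 of 24, which allows a share of up to 12.5%, and Lef1, Satb1 and Foxo1 in 1 of 24 each (4.17%). Bach2 and S1pr1 were seen in 2 of 24 each (8.33%), above their shares of 3.32% and 7.31% in Pdcd1-positive CD8 cells. Foxp1 was seen in 6 of 24 (25.0%) against 11.8%. By this view the Pdcd1-positive shares of these 3 genes cannot be told from background. Without thinning, 28 myeloid barcodes showed Foxo1 in 32.1% and Satb1 in 21.4%, against 31.7% and 20.6% of Pdcd1-positive CD8 cells. Tcf7 and Lef1 were in 10.7% each, against 33.4% and 26.8%. The median depths were 7964 and 5562 UMIs. With so few barcodes, the view does not show Lef1, Satb1 or Foxo1 to be clear of background. A myeloid barcode can hold its own transcripts as well as free RNA, and the view does not separate them. Klf2 and Klf3 were seen in 9 of 24 each (37.5%) against 21.4% and 7.90%, and myeloid cells are known to express both.

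The same cells tended to hold several of the genes. A thinned Pdcd1-positive cell held 1.02 ± 0.47 of the 9 genes on average and a Pdcd1-negative cell 3.16 ± 0.34 (n = 8 mice). None of the 9 was seen in 51.9% ± 10.5 against 7.09% ± 5.47 of cells, and 3 or more were seen in 14.4% ± 11.2 against 65.1% ± 8.3. Over the 36 pairs of genes the odds ratio for being seen in the same cell had a median of 3.69 (1.17 to 7.02) in Pdcd1-positive and 1.35 (0.987 to 2.23) in Pdcd1-negative cells. They are Mantel-Haenszel odds ratios, which combine counts made within each mouse. Cells are not replicates, so the ratios are given as a description.

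Genes linked to the 9 in resting T cells were lower too. Of 10 homing, survival and naive surface genes, 9 were called lower and 1 higher, with a median log2 ratio of -2.34 against -0.02 for all genes tested. Il6ra (-3.50), a subunit of the interleukin-6 receptor, was lowest and Cd27 (0.17) was higher. Of 13 quiescence and growth brakes, 12 were lower and 0 higher (median -1.19), among them the PI3K inhibitor Pik3ip1 (-2.40) and Rgs10 (-2.23). Of 13 genes listed as TCF1 and LEF1 partners or linked regulators, 8 were lower and 0 higher (median -0.70). The lower ones included the Groucho corepressor Tle1 (-3.40), Id3 (-2.16) and Tle3 (-0.27). Close relatives of the 9 were mixed: of 9 tested out of 16, 4 were lower, with Bach1 and Klf7 both at -1.91, and 2 were higher, with Klf10 at 0.35 and S1pr2 at 0.59.

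Opposing lists went the other way, in a comparison where 2563 of 8707 genes tested were called higher. Of 13 effector regulators, 11 were higher and 0 lower (median 0.93), with the orphan nuclear receptor gene Nr4a2 at 1.78 and Prdm1, which encodes the repressor BLIMP1, at 1.77. All 7 exhaustion receptors tested were higher (median 2.31), with Havcr2 at 3.20 and Lag3 at 3.12. Of 7 progenitor exhausted genes tested out of 8, Xcl1 (2.90) and Cd83 (2.10) led 4 that were higher, whereas Tnfsf8 (-2.02) and Slamf6 (-1.28) were lower. Cells with a Mki67, Top2a, Birc5 or Cdk1 UMI made up 40.2% ± 8.2 of Pdcd1-positive and 12.0% ± 1.7 of Pdcd1-negative CD8 cells. Among cells without such a UMI all 9 genes were still called lower.

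Splitting CD8 cells further by Ccl5, a chemokine of antigen-experienced cells, separated 1934 cells with neither transcript, 2357 with Ccl5 alone, 167 with Pdcd1 alone (10 to 36 per mouse) and 1689 with both. Among Pdcd1-negative cells the differences were modest. Lef1, Klf2, Satb1, Bach2, Foxo1 and S1pr1, 6 of 9, were lower in Ccl5-positive cells, from -0.37 (Foxo1) to -0.93 (Klf2), where 6.77% of 7463 genes were called and 2.96% were lower. Tcf7 (-0.51), Klf3 (-0.57) and Foxp1 (-0.49) did not pass (edgeR adjusted p = 0.105, 0.150 and 0.0685). The summed level of 6 NK cell markers was 40.5 ± 12.9 CPM in the Ccl5-negative and 308 ± 244 CPM in the Ccl5-positive cells of this comparison, and that of the 13 myeloid markers 674 ± 982 and 186 ± 94.7 CPM. The NK list shares a gene with the effector regulators above, so its sum is not a measure of NK cells alone. The part of both sums in the differences was not tested. The count depended on single mice: it was 1 without PBS mouse 6 or PBS mouse 9, 2 without LR mouse 1, 2 or 3 or PBS mouse 8, 4 without LR mouse 4 and 8 without PBS mouse 7. The share of called genes that were higher was 56.2%, and 68.9% with library totals.

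Among Pdcd1-positive cells all 9 genes were lower where Ccl5 was present, against a background of 11.6% called and 4.78% called lower. Tcf7 was at 162, 341 and 593 CPM in cells with Pdcd1 alone and at 24.8, 87.3 and 179 CPM in cells with both. Klf2 was at 199, 786 and 1996 CPM against 76.8, 152 and 280 CPM. Both genes were lower in the Ccl5-positive cells of every mouse, though the ranges overlapped between mice. The log2 ratios were -1.999 ± 0.25 for Tcf7 and -2.31 ± 0.30 for Klf2 (edgeR adjusted p = 6.86e-06 and 9.85e-06), and they ran from -0.81 (Foxo1) to -2.56 (Bach2) over the 9 genes. Foxo1 was lower in 6 of 8 mice, and without PBS mouse 7 it was at -0.47 (edgeR adjusted p = 0.167). The cells with Pdcd1 alone were shallower, with a median of 3483 against 5779 UMIs, and had a higher mean mitochondrial share, 3.15% against 1.89%. They also held fewer Pdcd1 UMIs for their number, 437 in 167 cells against 8213 in 1689 cells with both. The part of these in the differences was not tested. With stricter gates, in which a Pdcd1-positive cell needed 2 UMIs, 1 of 9 genes was called.

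In the same comparison among Pdcd1-positive cells, 7 of 10 naive surface genes were lower with Ccl5 (median -2.11, all genes 0.03), led by Igfbp4 (-3.15) and Dapl1 (-2.91). Tnfsf8 (-3.20), Cd83 (-2.01) and Slamf6 (-1.47), 3 of 7 progenitor exhausted genes, were lower (median -0.92). Of 12 TCF1 and LEF1 partners or linked regulators tested, 3 were lower, Id3 (-2.06), Myb (-1.86) and Bcl9l (-1.43). In this list 1 gene was higher, Tle5 (0.43), and the median was -0.08. Of 12 effector regulators tested, 3 were higher, Prdm1 (2.91), Id2 (1.503) and Tbx21 (1.21), and 0 lower, with a median of 0.21. Of all 7463 genes tested, 508 were called higher in this comparison. The share of called genes that were higher was 58.7%, and 43.5% with library totals.

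All 9 genes were also lower with Pdcd1 within Ccl5-positive cells, from -1.40 (Foxo1) to -3.28 (Klf2), against a background of 54.7% called and 26.5% lower. Within Ccl5-negative cells all 9 were lower as well, from -0.92 (Bach2) to -1.90 (Klf2), against 25.6% called and 13.2% lower; Bach2 was not called without LR mouse 2, PBS mouse 6 or PBS mouse 9, and 3 of 9 were called in thinned cells. The difference between the 2 was tested as an interaction, where 1.67% of genes were called and 1.17% were lower. It was called for 4 of 9 genes, Tcf7 (-1.49 ± 0.31), Lef1 (-1.21 ± 0.19), Satb1 (-1.62 ± 0.36) and Bach2 (-1.95 ± 0.40; edgeR adjusted p = 0.0129, 9.82e-05, 0.0219 and 0.00719), all with a larger Pdcd1 difference in Ccl5-positive cells. The other 5 were also below 0, from -0.44 (Foxo1) to -1.43 (Klf3), and did not pass. Without LR mouse 1 the count was 2, and with the stricter gates it was 0. The Pdcd1-positive cells with and without Ccl5 also differed in Pdcd1 UMIs per cell, and the part of that was not tested. With library totals the shares of higher calls moved from 51.7% to 62.3%, from 48.5% to 73.7% and from 30.4% to 9.59% in these 3 comparisons, with median shifts of 0.11, 0.21 and -0.11.

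Conventional CD4 cells held the highest levels of the 3 lineages. All 9 genes were lower in CD8 than in CD4 cells, from -0.44 (Foxp1) to -1.10 (Bach2), where 28.8% of 8070 genes were called and 13.6% lower. Bach2 was at 26.6, 52.1 and 70.2 CPM in CD8 and at 74.3, 117 and 158 CPM in CD4 cells, without overlap. Among Pdcd1-negative cells of each class, where 12.9% of 5622 genes were called and 5.96% were lower in CD8 cells, 1 of 9 differences was called, that of Bach2, at -0.60 (edgeR adjusted p = 0.000226), and Foxp1 was at 0.047 (edgeR adjusted p = 0.853). This comparison was added after the data were seen. Without the mouse block 4 of 9 were called. The share of called genes that were higher was 52.8%, and 36.6% with library totals.

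Foxp3-positive cells, which carry the defining factor of regulatory T cells, were lower than CD4 cells for all 9 genes, with 45.6% of genes called and 21.5% called in this direction. Tcf7 was at 469, 632 and 842 CPM in CD4 and at 19.3, 52.5 and 216 CPM in Foxp3-positive cells, and Klf2 at 1057, 1366 and 2492 CPM against 109, 220 and 731 CPM. Neither gene overlapped between the classes. The log2 ratio of CD4 over Foxp3-positive cells was 3.39 ± 0.24 for Tcf7, 3.10 ± 0.26 for Bach2, 2.77 ± 0.21 for Klf2, 2.74 ± 0.25 for Klf3, 2.55 ± 0.18 for Satb1, 2.19 ± 0.22 for S1pr1, 2.0 ± 0.12 for Foxp1 and 1.92 ± 0.16 for Lef1 (edgeR adjusted p from 3.35e-15 to 8.57e-07). At the fixed depth 25.0% ± 10.7 of Foxp3-positive cells had a Klf2 UMI and 12.1% ± 7.9 a Tcf7 UMI (39.7% and 21.7% without thinning).

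Foxo1 stood apart among the 9 in Foxp3-positive cells. It was at 107, 124 and 202 CPM there against 130, 166 and 227 CPM in CD4 cells, and the ranges overlapped. The log2 ratio of CD4 over Foxp3-positive cells was 0.41 ± 0.12 (edgeR adjusted p = 0.0094), and it did not pass in cells thinned to 1500 UMIs (0.32, adjusted p = 0.0893), without the mouse block (0.47, adjusted p = 0.0694), in Pdcd1-negative cells (0.26, adjusted p = 0.0967) or in cells without a cycling UMI (0.18, adjusted p = 0.33). Foxp3-positive cells held a median of 75.8% (61.3% to 99.4%) of the CD4 level of Foxo1, the highest of the 9 genes in 8 of 8 mice. The medians of the other genes ran from 8.03% (Tcf7) to 27.5% (Lef1).

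Against Foxp3-positive cells, CD8 cells were higher for 8 of 9 genes, from 1.22 (Lef1) to 2.41 (Tcf7), with 38.3% of genes called and 18.2% higher. Foxo1 was at -0.25 ± 0.11 (edgeR adjusted p = 0.0876) and lower in CD8 cells in 6 of 8 mice. It was called lower in CD8 cells with library totals (-0.35, adjusted p = 0.00929), without PBS mouse 7 (-0.38, adjusted p = 0.00416) and without PBS mouse 8 (-0.33, adjusted p = 0.0347). Library totals shifted the median of all genes by -0.10 and the share of higher calls from 47.6% to 32.5%.

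Foxp3-positive and Pdcd1-positive CD8 cells were then compared directly, a comparison chosen after the data were seen, in which 31.2% of 8436 genes were called and 15.8% were higher in Foxp3-positive cells. Only Foxo1 was called, 1 of 9 genes. It was at 107, 124 and 202 CPM in Foxp3-positive and at 42.3, 59.1 and 92.2 CPM in Pdcd1-positive CD8 cells, so every Foxp3-positive sum was above every CD8 sum. The log2 ratio was 1.07 ± 0.10 (edgeR adjusted p = 4.34e-11). The other 8 genes ran from -0.80 (Tcf7, 95% interval -1.54 to -0.05, adjusted p = 0.1) to 0.59 (S1pr1, -0.02 to 1.19, adjusted p = 0.136), and the intervals do not show these levels to be alike. DESeq2 called 4 of 9, and 7 were called without the filter on low counts. Without PBS mouse 7 the count among the 9 was 3 and without PBS mouse 9 it was 2. Over all genes, 2628 were called in the main fit and 1016 to 3158 under the alternatives. Cells with a cycling UMI made up 40.0% ± 10.9 and 40.2% ± 8.2 of the 2 classes. The share of higher calls was 50.7%, and 61.8% with library totals.

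**Figure D3:**
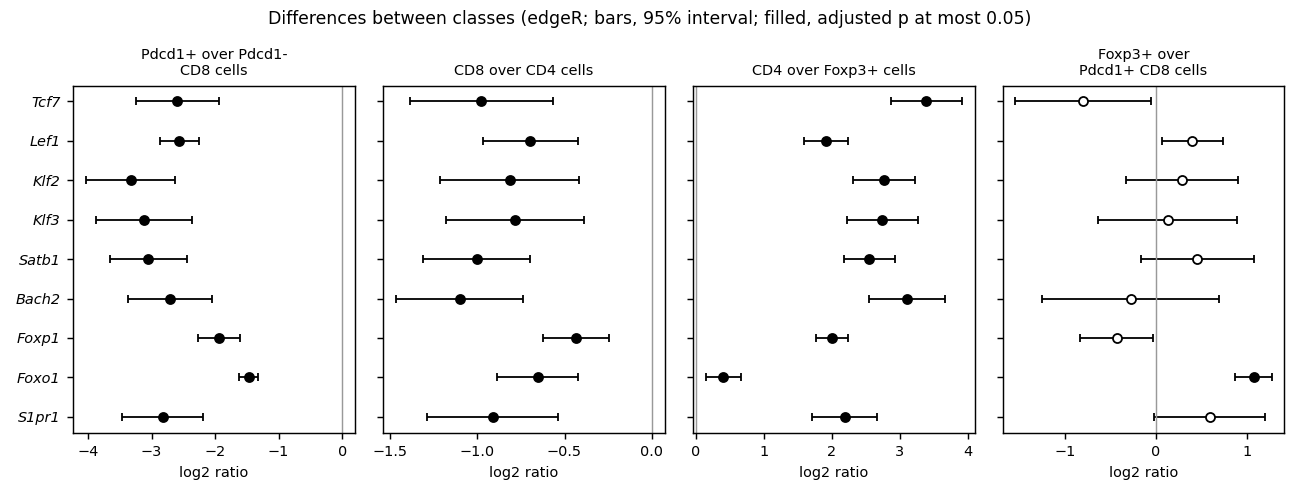
Log2 ratios of the 9 genes (x axis, scaled separately in each panel) with 95% intervals in 4 comparisons between classes; filled points have an adjusted p of at most 0.05. All points are filled in the first 3 panels, where Foxo1 lies nearest to 0 for CD4 over Foxp3-positive cells (0.41), and Foxo1 is the only filled point (1.07) for Foxp3-positive over Pdcd1-positive CD8 cells.

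Among genes linked to the 9, CD4 cells were above Foxp3-positive cells for 11 of 13 quiescence and growth brakes (median 1.12, all genes 0.00), with Pik3ip1 at 2.07 and Txnip at 1.80. Of 10 naive surface genes 7 were higher, led by Igfbp4 (3.64), and Cd27 (-0.78) and Itgb7 (-0.62) were lower. Of 12 TCF1 and LEF1 partners or linked regulators tested, 8 were higher in CD4 cells, with Id3 at 1.74. Myb (-1.45) and Gata3 (-0.74) were lower. Prdm1 (-2.06) and Maf (-1.65) were among 6 of 13 effector regulators that were lower in CD4 cells, where 1947 of 8070 genes tested were called lower.

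LR was compared with PBS, 4 mice against 4, to see whether treatment moved the 9 genes. In CD8 cells none of the 9 was called, nor was any of 9962 genes by edgeR, a background of 0%; 736 genes had an unadjusted p under 0.05 and DESeq2 called 4. Tcf7 was at 440, 222, 214 and 132 CPM in LR mice 1 to 4 and at 213, 489, 465 and 457 CPM in PBS mice 6 to 9. LR mouse 1 lay with the high PBS mice and PBS mouse 6 with the low LR mice, and the groups overlapped. All 9 log2 ratios of LR over PBS were below 0, from -0.48 (Bach2) to -0.84 (Lef1) on the log2 scale (edgeR adjusted p from 0.629 to 0.732), with 95% intervals on both sides of 0, as for Tcf7 (-1.71 to 0.27). None of the 9 had groups that did not overlap, against 3.19% of all genes.

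The share of Pdcd1-positive cells among CD8 cells was 25.6%, 49.0%, 47.7% and 59.6% in LR mice 1 to 4 and 51.8%, 8.95%, 24.6% and 26.0% in PBS mice 6 to 9. The mice with the lowest LR and the highest PBS share, LR mouse 1 and PBS mouse 6, were the ones whose Tcf7 lay with the other group. The means were 45.5% ± 14.3 and 27.8% ± 17.8, a difference of 17.6 points (two-sided exact permutation p = 0.257, n = 4 and 4). It was 11.4 points without PBS mouse 7 and 25.7 points without PBS mouse 6. The part of this share in the CD8 values was not tested.

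Within Pdcd1-negative CD8 cells the LR and PBS levels lay closer, from -0.28 (Lef1) to 0.10 (Bach2), with 0% of 8340 genes called (387 at an unadjusted p under 0.05, 0 by DESeq2) and 0 of 9 not overlapping, against 2.97% of all genes. The summed level of 13 myeloid markers was 539 ± 430 CPM in LR and 152 ± 35 CPM in PBS mice in this class; its part in these values was not tested. Klf2 was at 2208, 1684, 1157 and 1718 CPM in LR and at 1292, 1405, 2477 and 2204 CPM in PBS mice, and the groups overlapped.

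Within Pdcd1-positive CD8 cells all 9 log2 ratios were below 0, from -0.25 (Foxp1) to -1.07 (S1pr1), and none was called (edgeR adjusted p of 0.996 or more), where 1 gene, 0.0114%, was called (429 at an unadjusted p under 0.05, 3 by DESeq2). Of the 9 genes, 1 had an unadjusted edgeR p under 0.05. Klf2 was at 262, 86.0, 128 and 89.8 CPM in LR and at 130, 414, 339 and 281 CPM in PBS mice. Tcf7 was at 118, 82.8, 82.1 and 30.4 CPM against 79.2, 255, 117 and 152 CPM, and Foxo1 at 56.1, 62.1, 47.1 and 42.3 CPM against 50.3, 92.2, 62.6 and 68.9 CPM. For all 3 genes PBS mouse 6 lay among the LR mice, and 0 of 9 genes had groups without overlap, against 2.85% of all genes. Leaving out 1 mouse moved these ratios: Foxp1 was at 0.022 without PBS mouse 7, Klf3 ranged from -1.25 to -0.17 and Bach2 from -0.82 to -0.07. The intervals of Klf2 and Tcf7 are wide, -2.33 to 0.23 and -2.22 to 0.33, so both a 4-fold lower and an equal level in LR mice lie within them. The difference between the Pdcd1-positive and Pdcd1-negative effects ran from -0.06 (Foxp1) to -0.97 (Klf2), and 0% of 9345 genes were called.

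Among the Ccl5 groups, the 9 genes ran from -0.21 to 0.12 in cells with neither transcript (0.0358% of genes called by edgeR, 257 at an unadjusted p under 0.05, 4 by DESeq2), from -0.36 to 0.15 in cells with Ccl5 alone (0%, 301 and 0) and from -0.15 to -0.91 in cells with both (0.0116%, 372 and 3), and none was called. In CD4 cells they ran from -0.47 (Lef1) to 0.08 (Klf3), none was called and 0% of 5625 genes were (333 at an unadjusted p under 0.05, 1 by DESeq2). Of the 9 genes, 2 had an unadjusted edgeR p under 0.05 in CD4 cells and 1 in cells with Ccl5 alone. In Foxp3-positive cells 8 genes passed the filter on low counts, Bach2 did not, and the 8 ran from -0.17 (Foxo1) to -1.09 (Tcf7) with none called and 0.0143% of genes called (385 and 2). Klf3 (-0.99), Foxp1 (-0.98) and S1pr1 (-0.81) had unadjusted p-values of 0.0303, 0.00541 and 0.0173 and adjusted values of 0.873 or more. Without the filter on low counts, Klf3 and Foxp1 were called (edgeR adjusted p = 0.0378 and 0.00507). Over all genes, 1 was called in the main fit and 0 to 38 under the alternatives. The share for the unfiltered fit alone is not given here, so these calls have no like background. Foxp1 was at 59.1, 33.1, 28.0 and 33.4 CPM in LR and at 34.2, 93.5, 59.4 and 100.9 CPM in PBS mice, with PBS mouse 6 among the LR mice. In each of these 5 classes 0 of 9 genes had groups without overlap, against 3.52% of all genes in cells with neither transcript, 2.89% with Ccl5 alone, 2.45% with both, 3.15% in CD4 and 3.39% in Foxp3-positive cells.

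**Figure D4:**
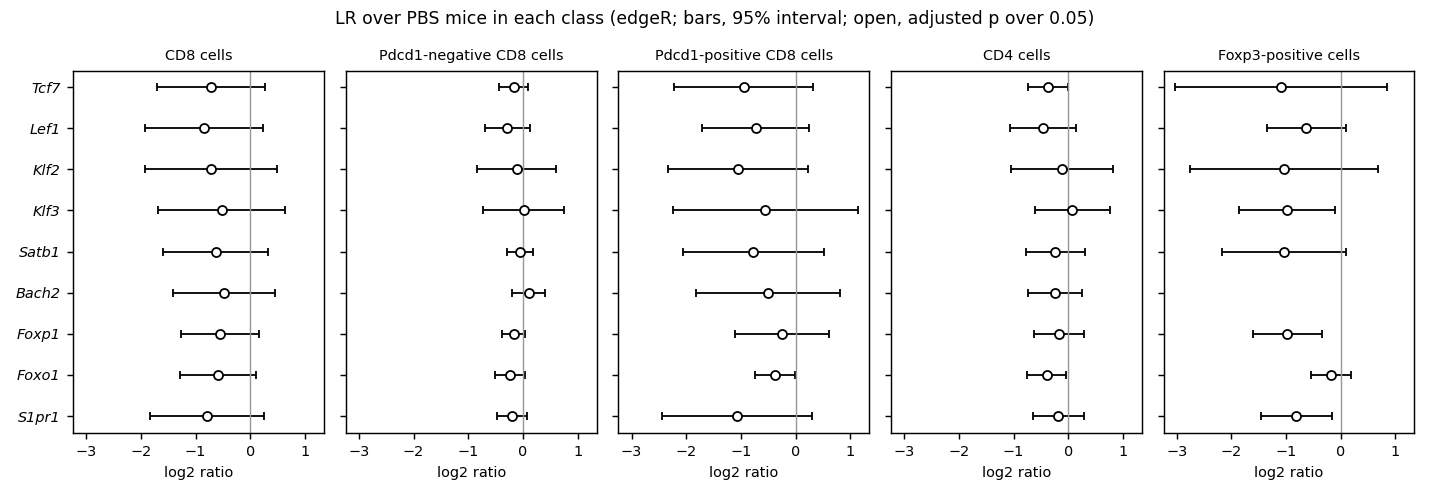
Log2 ratios of LR over PBS mice (x axis, the same scale in all panels) with 95% intervals for the 9 genes in 5 classes; open points have an adjusted p over 0.05. No point is filled, the Pdcd1-negative CD8 points lie within -0.28 to 0.10, and Bach2 is missing for Foxp3-positive cells because it did not pass the filter on low counts.

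Across 48 sums (8 mice in 6 classes, the 4 CD8 groups, CD4 and Foxp3-positive cells) the 36 pairs of the 9 genes had a median Pearson r of log2 CPM of 0.88 (0.52 to 0.97). Foxo1 was the least like the others, at 0.52 to 0.74, and S1pr1 lay at 0.68 to 0.81, while the 21 pairs without these 2 genes lay at 0.87 to 0.97. Among 7890 other genes the nearest pattern to Tcf7 was that of Gm2682 (r = 0.96), which was also nearest to Bach2 (0.89) and Foxp1 (0.92). Rflnb was nearest to Lef1 (0.95) and Satb1 (0.94), Arl4c to Klf2 (0.94) and Klf3 (0.94), Ripor2 to S1pr1 (0.94) and Selenop to Foxo1 (0.90). These are descriptions over sums that share mice, a lane and class gates, and say nothing of shared function.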

How the data were processed

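The authors deposited UMI counts for genes and hashtag antibodies in 1 matrix, made with Cell Ranger 4.0.0 on GRCm38 per the submitters' processing notes; the annotation release is not given in the sources used here. Libraries used a 5' Chromium kit per the labels' protocols. Of the barcodes, 14474 passed a minimum of 500 genes and a mitochondrial limit of 10%, and cells were kept where exactly 1 hashtag was positive (2570 held several and 679 none) and Scrublet (scanpy 1.11.5, Python 3.11.15, expected rate 0.1, 1177 marked) did not mark a doublet. Each barcode occurs once.

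Deposited counts were summed per mouse and class (classes of under 10 cells left out), filtered with filterByExpr, scaled by TMM and tested with edgeR 4.0.16 (R 4.3.3; quasi-likelihood, robust), Benjamini-Hochberg adjusted over all genes tested. Class contrasts had mouse as a block, since classes of 1 mouse share the animal; LR and PBS mouse numbers do not overlap and pair no mice. The SE and interval use edgeR's degrees of freedom. Shares used cells thinned to 1500 UMIs; the limit at a count of 0 is 3 counts and covers counting error only. Alternatives were DESeq2 1.42.0, library totals, no filter, other gates and depths, no doublet caller and leaving out each mouse. Scripts were tested on simulated data.

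The members and gene lists were chosen with earlier results of these data known. Named list genes are the 2 highest and 2 lowest among those called in a list, and the nearest genes those of highest Pearson r. One gene of a list is not reported here by name.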

Additional observations from a re-analysis of the deposited data

Results flagged for a closer look

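In 92 sets of 4 values, 1 per mouse of a treatment group, 12 held a value far from the other 3, and all 12 came from PBS mouse 6 or LR mouse 1. A set was a gene in a class or the Pdcd1-positive share of CD8 cells. Chance gives about 1 in 20 for independent sets, but these reuse the same 8 mice and genes that vary together, so that rate does not apply to the count. In CD8 cells PBS mouse 6 was low for Tcf7 (213 CPM, the others 457 to 489), Bach2 (27.1 CPM) and S1pr1 (62.4 CPM), and LR mouse 1 was high for Klf2 (1449 CPM) and Satb1 (258 CPM). PBS mouse 6 was also low for Lef1 in Pdcd1-negative CD8 cells (234.7 CPM). LR mouse 1 was high for Satb1 in Pdcd1-positive CD8 cells (65.7 CPM), for Lef1 in CD4 cells (403.9 CPM) and in Foxp3-positive cells for Tcf7 (138 CPM), Klf2 (430.5 CPM), Klf3 (42.7 CPM) and Satb1 (98.6 CPM). These 2 mice had the highest PBS and the lowest LR share of Pdcd1-positive CD8 cells, 51.8% and 25.6%, and the part of that share was not tested.

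The log2 difference with Pdcd1 was larger in Ccl5-positive than in Ccl5-negative CD8 cells for Tcf7 (by -1.49), Lef1 (-1.21), Satb1 (-1.62) and Bach2 (-1.95), by edgeR's interaction test. Of all genes tested 1.67% were called. Leaving out 1 mouse gave 2 to 5 genes of the set, with edgeR adjusted p of up to 0.0523 for Tcf7 and 0.109 for Satb1. The calls were lost with the stricter gates.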

How the results depend on the processing

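All 9 genes were called lower in Pdcd1-positive CD8 cells under every alternative run. Without the replicate block, the number of the 9 genes called was 4 of 9 for CD8 against CD4 cells, 2 (from 6) for Ccl5 among Pdcd1-negative cells and 2 (from 4) for the interaction of Pdcd1 and Ccl5; in other class comparisons it moved by at most 1. With the stricter gates (at least 2 Cd8a or Cd8b1 UMIs, 2 Pdcd1 UMIs, no Cd8a or Cd8b1 in CD4 and Foxp3-positive cells) it was 1 (from 9) for Ccl5 among Pdcd1-positive cells, where Foxp1 turned to 0.71 (edgeR adjusted p = 0.639), 0 for the interaction and 6 (from 1) for Foxp3-positive against Pdcd1-positive CD8 cells. Without the filter on low counts it was 7 for the interaction, 7 for the latter comparison and 2 (from 0) for LR against PBS in Foxp3-positive cells. Thinning gave 3 (from 9) for Pdcd1 within Ccl5-negative cells. DESeq2 gave 4 and library totals 2 for Foxp3-positive against Pdcd1-positive CD8 cells. Alternatives chosen after seeing the data were cells without a cycling UMI, which gave 5 for Pdcd1 within Ccl5-negative cells, 3 for Ccl5 among Pdcd1-negative cells and 1 for the interaction, cells of at least 3000 UMIs, which gave 2 for Foxp3-positive against Pdcd1-positive CD8 cells, and Pdcd1-negative cells of each class, which gave 1 for CD8 against CD4, with Foxp1 at 0.047. Leaving out 1 mouse gave 1 to 8 for Ccl5 among Pdcd1-negative cells, 2 to 5 for the interaction and 1 to 3 for Foxp3-positive against Pdcd1-positive CD8 cells. The cause of these changes was not tested. Of 3011 recomputed log2 ratios of the 9 genes, 102 lost and 44 gained a call with the sign kept, and 72 values that were not called changed sign. A further 2 changed sign where at least 1 of the values compared was called.

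Over all genes, calls depended more on the setting: 5250 for Pdcd1 ranged from 2031 to 6178, 2327 for CD8 against CD4 from 720 to 2605, and 125 for the interaction from 35 to 337. For Foxp3-positive against Pdcd1-positive CD8 cells 2628 ranged from 1016 to 3158. For LR against PBS in Foxp3-positive cells 1 ranged from 0 to 38. The 167 cells with Pdcd1 alone, 10 to 36 per mouse, and 4 mice per treatment limit the precision.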
